A study of Mus musculus with 12 samples.

Results

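Glucose uptake and glycolysis were followed through 10 genes: the glucose transporter gene Slc2a1, the hexokinase genes Hk1 and Hk2, the enzyme genes Gpi1, Aldoa, Tpi1, Gapdh and Eno1, and the lactate dehydrogenase genes Ldha and Ldhb. They were taken by name from the 37931 gene names that both count tables hold, and all 10 passed the filter on low counts in every comparison. The cells were stem cells of the hair follicle, sorted from the back skin of mice, the quiescent cells of the follicle bulge that regrow the hair. Sorting was for the green histone H2BGFP, CD34 and CD49f and against Sca-1. RNA selected with oligo(dT) was sequenced from knockout (KO) mice that lack Foxc1, a forkhead transcription factor, and from wild-type (WT) controls, to ask how the loss bears on these stem cells at different times of the hair cycle.

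All mice carried K14-H2BGFP and Foxc1 fl/fl alleles, and the KO mice carried K14Cre as well. The WT controls therefore held the same floxed alleles without Cre, and no group had Cre with intact Foxc1. The keratin 14 promoter that drives Cre is active in basal keratinocytes throughout the skin, so deletion was not limited to the sorted cells. The early telogen KO group had 4 libraries, replicates 1, 2 and 3 titled day 47 and replicate 5 titled day 43 with an age label of 47 days. The early telogen WT group had 3 libraries of day 47, replicates 1, 3 and 4. The anagen KO group had 2 libraries, of days 29 and 31. The anagen WT group had 3 libraries titled days 29, 30 and 31, and the last carried an age label of 43 days. The names early telogen (the resting phase after growth) and anagen (the growth phase) stand here for these 2 age sets, each deposited as a table of its own, since the sample labels give days and no stage. By label, early telogen KO replicate 2, early telogen WT replicate 4 and anagen WT replicates 2 and 3 were male and the other libraries female, so both anagen KO libraries were female. The labels do not say that replicates came from separate animals, so p-values measure the spread between these samples, which may be technical.

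Libraries held 2662083 to 11821916 gene counts in early telogen, the lowest in KO replicate 5, and 29025553 to 54482469 in anagen. Foxc1 had 0.910 to 3.11 CPM (a gene's counts scaled to an equal total of gene counts in every library) in early telogen KO against 43.8 to 61.2 CPM in early telogen WT, and 0.206 and 0.276 CPM in anagen KO against 34.6 to 116 CPM in anagen WT, so each label matched its targeted gene. All 12 genes of a list that marks these stem cells, such as Cd34, Krt15, Lhx2 and Sox9, were above 0 in every library, with summed levels of 30861 to 41142 CPM in early telogen KO, 35913 to 42707 CPM in early telogen WT, 24699 and 28317 CPM in anagen KO and 26531 to 34884 CPM in anagen WT. Of these 12 genes, 11 had negative log2 fold changes in early telogen KO against WT, with a median of -0.24, and Cd34, a gene of the sort, passed as lower (349, 357, 365 and 417 CPM in KO against 647, 845 and 787 CPM in WT, log2 fold change -1.20 ± 0.21, edgeR adjusted p = 0.0212). In anagen none passed, and the list went both ways, with 5 genes positive, 7 negative and a median of -0.19. Krt15, a keratin gene of the follicle bulge, had 1254 and 2192 CPM in KO against 4641, 9289 and 7078 CPM in WT (edgeR adjusted p = 0.156). The part of these differences in the values of the members was not tested. Of 8 muscle markers, 4 to 7 were at 0 in each early telogen library. Early telogen KO replicate 2 stood apart. KO replicate 2 had the highest summed level of 8 upper follicle and epidermis markers (5901 CPM, against 1594 to 3941 CPM in the other early telogen libraries) and of 8 fibroblast markers (5105 CPM). WT replicate 3 was lowest for both lists, at 1594 and 282 CPM. The WT libraries were widely spread, with 3941 and 1584 CPM in WT replicate 1 and 2592 and 884 CPM in WT replicate 4.

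Glucose enters keratinocytes mainly through the transporter GLUT1, the product of Slc2a1, and hexokinases trap it in the cell by phosphorylation. The enzymes below them split the sugar and carry it to pyruvate, which lactate dehydrogenase converts to lactate. Hypoxia-inducible factors and MYC are known activators of many of these genes, and hair follicle stem cells are known for high glycolysis and lactate production.

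The promoters of the members with the lowest ratios of KO to WT, Hk2 and Slc2a1, are shown because these members carry the main results. The windows are the 250 bases before the RefSeq start of each gene on build GRCm38.p6, at chr6:82774455-82774704 on the minus strand for Hk2 and at chr4:119108495-119108744 on the plus strand for Slc2a1. They are written 5′ to 3′ on the gene's strand, and capitals mark ACGTG or GCGTG on either strand, the core letters of the sites that hypoxia-inducible factors bind.
Hk2: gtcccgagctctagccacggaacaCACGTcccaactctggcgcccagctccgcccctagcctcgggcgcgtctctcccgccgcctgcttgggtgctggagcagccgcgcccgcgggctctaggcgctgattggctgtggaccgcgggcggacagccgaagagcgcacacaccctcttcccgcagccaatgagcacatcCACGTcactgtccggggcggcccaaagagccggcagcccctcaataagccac
Slc2a1: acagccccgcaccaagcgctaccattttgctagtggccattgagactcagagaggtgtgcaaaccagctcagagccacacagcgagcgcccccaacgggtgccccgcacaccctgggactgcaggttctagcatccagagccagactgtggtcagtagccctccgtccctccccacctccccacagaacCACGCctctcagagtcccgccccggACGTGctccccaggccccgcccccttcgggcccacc
The Hk2 window held ACGTG at 2 places, both on the reverse strand, and the Slc2a1 window held ACGTG at 1 place on the forward strand and GCGTG at 1 place on the reverse strand. Over all members, 12 of 16 RefSeq windows, from 8 of 10 genes, held either core, which is 75% of the windows, against 38.6% of all 32851 windows. Member windows were richer in G and C (61.1% against 53.2%), and some windows of the same gene overlap, so the shares are a description. The forkhead core TAAACA was in 0 of 16 member windows against 12.03% of all windows, and the E-box CACGTG, which contains ACGTG, in 1 of 16 (6.25%) against 6.02%. A match of letters is not a bound site, and nothing about a factor follows from its absence in so short a window.

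KO cells had less Slc2a1 RNA than WT cells in early telogen, and this was the sole member that passed the test there. Tested across all genes with edgeR's quasi-likelihood test and Benjamini-Hochberg adjustment (threshold 0.05), 1 of 10 members differed between early telogen KO and WT, against 0.956% of the 12028 genes tested, 0.499% higher and 0.457% lower in KO. In anagen, 0 of 10 members and 0.0% of 14409 genes passed, while 1456 genes had an unadjusted p under 0.05 and DESeq2 called 499 genes (3.56%), Hk2 among them. The direction of Slc2a1 and Hk2 was the same at both ages, lower in KO. The 7 members below hexokinase had log2 fold changes of -0.21 to 0.82 in early telogen and of -0.10 to 0.32 in anagen, with none passing.

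**Figure D1:**
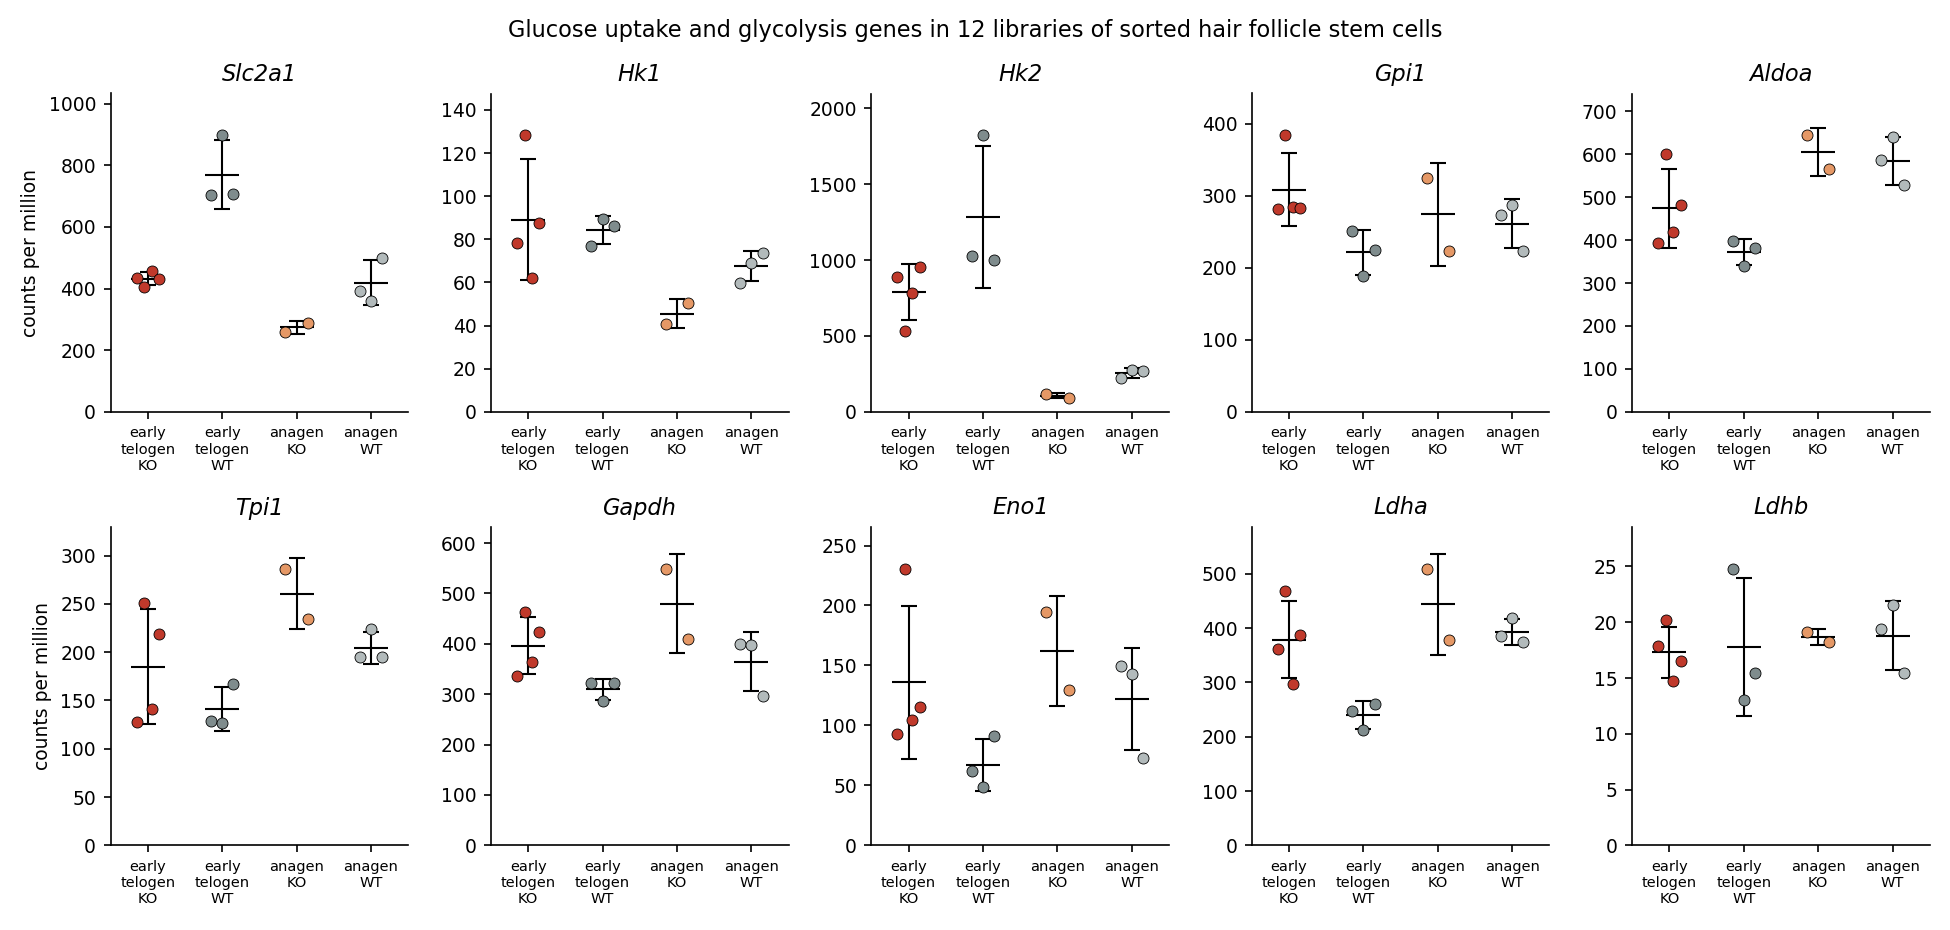
Level of each member in CPM (vertical axes, each from 0) in every library, with group mean and SD as bars; groups on the horizontal axis. The 4 early telogen KO libraries lie at 404 to 457 CPM for Slc2a1, below all 3 early telogen WT libraries at 703 to 898 CPM, and Hk2 is far lower in both anagen groups than in both early telogen groups.

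Slc2a1 (ENSMUSG00000028645.11, build mm10, chromosome 4, 119108711 to 119137983, plus strand) encodes the transporter. In early telogen KO it had 435, 404, 457 and 431 CPM in replicates 1, 2, 3 and 5, against 703, 898 and 706 CPM in early telogen WT replicates 1, 3 and 4. All KO libraries lay below all WT libraries, and the KO values were close together. The fitted log2 fold change was -1.001 ± 0.21 (SE), with an edgeR adjusted p of 0.0411. Without WT replicate 3, which was the highest, it was -0.83 with an edgeR adjusted p of 0.273. It passed without KO replicate 2 (-0.91, edgeR adjusted p = 0.0449) or 3, and not without any other single early telogen library (edgeR adjusted p from 0.0749). In anagen KO, Slc2a1 had 259 and 289 CPM, against 394, 361 and 500 CPM in anagen WT. These groups did not overlap either, but the log2 fold change of -0.70 ± 0.23 did not pass (edgeR adjusted p = 0.363). Averaged by group, Slc2a1 was 432 ± 21.6 CPM in early telogen KO (SD, n = 4), 769 ± 112 CPM in early telogen WT (n = 3), 274 ± 21.04 CPM in anagen KO (n = 2) and 418 ± 72.7 CPM in anagen WT (n = 3). In order of level, early telogen WT stood alone at the top and anagen KO alone at the bottom, while the ranges of early telogen KO and anagen WT overlapped.

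Hk2 (chromosome 6, 82725025 to 82774454, minus strand) encodes the inducible hexokinase of growing and insulin-responsive tissues. Early telogen KO libraries had 886, 533, 782 and 955 CPM in replicates 1, 2, 3 and 5, against 1027, 1824 and 998 CPM in WT replicates 1, 3 and 4. The highest KO library, 955 CPM, and the lowest WT library, 998 CPM, were close. The lowest KO value came from KO replicate 2, which stood apart in marker lists, and the highest WT value from WT replicate 3. The log2 fold change of -0.87 ± 0.31 did not pass (edgeR adjusted p = 0.259). Without KO replicate 2 and WT replicate 3, which removes these extreme Hk2 values, it was -0.27. In anagen KO, Hk2 had 118 and 94.0 CPM, against 222, 279 and 268 CPM in anagen WT. Both KO libraries were below all WT libraries. The log2 fold change of -1.36 ± 0.23 had an unadjusted p of 0.000528 and an edgeR adjusted p of 0.122. It passed with DESeq2 (adjusted p = 3.75e-05), with the day in the title as a block (-1.29, edgeR adjusted p = 0.0395, with 1.76% of genes passing) and with no filter on low counts (edgeR adjusted p = 0.00162), a setting under which 1.38% of genes passed. It did not pass with all 12 libraries in 1 fit. With labelled sex as a covariate it was -1.14 with an edgeR adjusted p of 0.964. Both anagen KO libraries were female, so within females the comparison rested on 1 WT library.

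Hk1 (chromosome 10, 62268855 to 62379908, minus strand) encodes the hexokinase found in most tissues. Levels in early telogen KO were 78.5, 128, 62.3 and 87.5 CPM, against 76.9, 89.6 and 86.3 CPM in early telogen WT. The groups overlapped and the log2 fold change was -0.12 ± 0.20 (edgeR adjusted p = 0.873). In anagen KO, Hk1 had 40.7 and 50.5 CPM, against 59.9, 68.9 and 73.8 CPM in anagen WT. The anagen groups did not overlap, and the log2 fold change of -0.66 ± 0.20 did not pass (edgeR adjusted p = 0.336).

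Per length of transcript, where genes can be set against each other, Hk2 made up 86.5% ± 6.84 of the hexokinase level in early telogen KO and 91.7% ± 2.09 in early telogen WT, and 64.2% ± 7.23 in anagen KO and 74.6% ± 1.11 in anagen WT (SD; of Hk1 and Hk2 only). The early telogen KO share was lowest in replicate 2, at 76.3%, and the range of the other KO libraries overlapped that of WT. In anagen the KO range of 59.1% to 69.3% lay below that of WT.

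Eno1 encodes an enolase, which makes phosphoenolpyruvate. It had 92.5, 231, 105 and 115 CPM in early telogen KO replicates 1, 2, 3 and 5, against 61.7, 49.0 and 90.9 CPM in early telogen WT replicates 1, 3 and 4. All KO libraries were above all WT libraries, by little at the nearest pair, and replicate 2 stood far above the rest. The log2 fold change was 0.82 ± 0.28 (edgeR adjusted p = 0.238), with an edgeR adjusted p of 0.0321 when labelled sex was a covariate and 1.34% of genes passed, and it was 0.54 without KO replicate 2. In anagen KO, Eno1 had 194 and 129 CPM, against 150, 143 and 73.0 CPM in anagen WT, and the groups overlapped (log2 fold change 0.32 ± 0.35, edgeR adjusted p = 0.815).

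Ldha encodes the lactate dehydrogenase subunit that favours lactate production. It had 361, 469, 298 and 387 CPM in early telogen KO replicates 1, 2, 3 and 5, against 246, 212 and 261 CPM in early telogen WT. The groups did not overlap, and the log2 fold change of 0.48 ± 0.18 did not pass (edgeR adjusted p = 0.295). In anagen KO it had 510 and 377 CPM, against 385, 419 and 374 CPM in anagen WT. These groups overlapped, with a log2 fold change of 0.09 ± 0.22 (adjusted p = 0.935 by edgeR).

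Ldhb, the subunit that favours pyruvate, was the lowest member in CPM, at 14.8 to 20.2 CPM in early telogen KO and 13.1 to 24.8 CPM in early telogen WT, and at 18.2 and 19.2 CPM in anagen KO and 15.5 to 21.6 CPM in anagen WT. The fewest counts behind it were 44, in early telogen KO replicate 5. It made up 6.04% ± 0.469 of the lactate dehydrogenase level per length in early telogen KO and 9.27% ± 2.62 in early telogen WT. In anagen it was 5.63% ± 0.929 in KO and 6.23% ± 0.672 in WT, so Ldha supplied most of this level in every group.

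Gpi1 encodes glucose phosphate isomerase, the step after hexokinase, and Gapdh encodes the dehydrogenase that yields the pathway's NADH. In early telogen KO, Gpi1 had 282, 384, 285 and 283 CPM, against 251, 188 and 224 CPM in WT, and its log2 fold change was 0.30 ± 0.18 (edgeR adjusted p = 0.537). Gapdh had 336, 463, 364 and 424 CPM in early telogen KO, against 322, 286 and 322 CPM in WT, with a log2 fold change of 0.18 ± 0.18 (adjusted p = 0.763 by edgeR). Neither gene's early telogen groups overlapped, and neither passed. Aldoa, the aldolase that splits the sugar, had 394 to 600 CPM in early telogen KO against 339 to 398 CPM in WT. Tpi1, which interconverts the triose phosphates so formed, had 128 to 251 CPM in early telogen KO against 126 to 167 CPM in WT. Both overlapped. For all 4 of these genes, and for Eno1 and Ldha, KO replicate 2 was the highest early telogen library.

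In anagen KO, Tpi1 had 287 and 235 CPM and Gapdh 549 and 410 CPM, against 195, 224 and 195 CPM and 399, 397 and 296 CPM in anagen WT. Their anagen groups did not overlap, with log2 fold changes of 0.26 ± 0.21 and 0.31 ± 0.25, while those of Gpi1 and Aldoa overlapped, with log2 fold changes of -0.02 ± 0.25 and -0.04 ± 0.22. In the anagen counts, reads placed at more than 1 position were not counted for genes. Their tally was 32.8% and 31.1% of all counts and tallies in anagen KO, against 20.1% to 25.8% in anagen WT. Whether such a read was tallied at each of its placements is not given, so these need not be shares of reads. Gapdh has stretches of at least 100 bases and 95% identity in 81 other genes, 77 of them annotated pseudogenes, which together cover 88.0% of its transcript. The covered share was 85.6% for Eno1, 76.8% for Ldhb, 55.0% for Ldha, 54.5% for Gpi1 and 19.3% for Tpi1, and no such stretch was found for Slc2a1, Hk1, Hk2 or Aldoa. How far this moved the values of these genes was not tested.

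**Figure D2:**
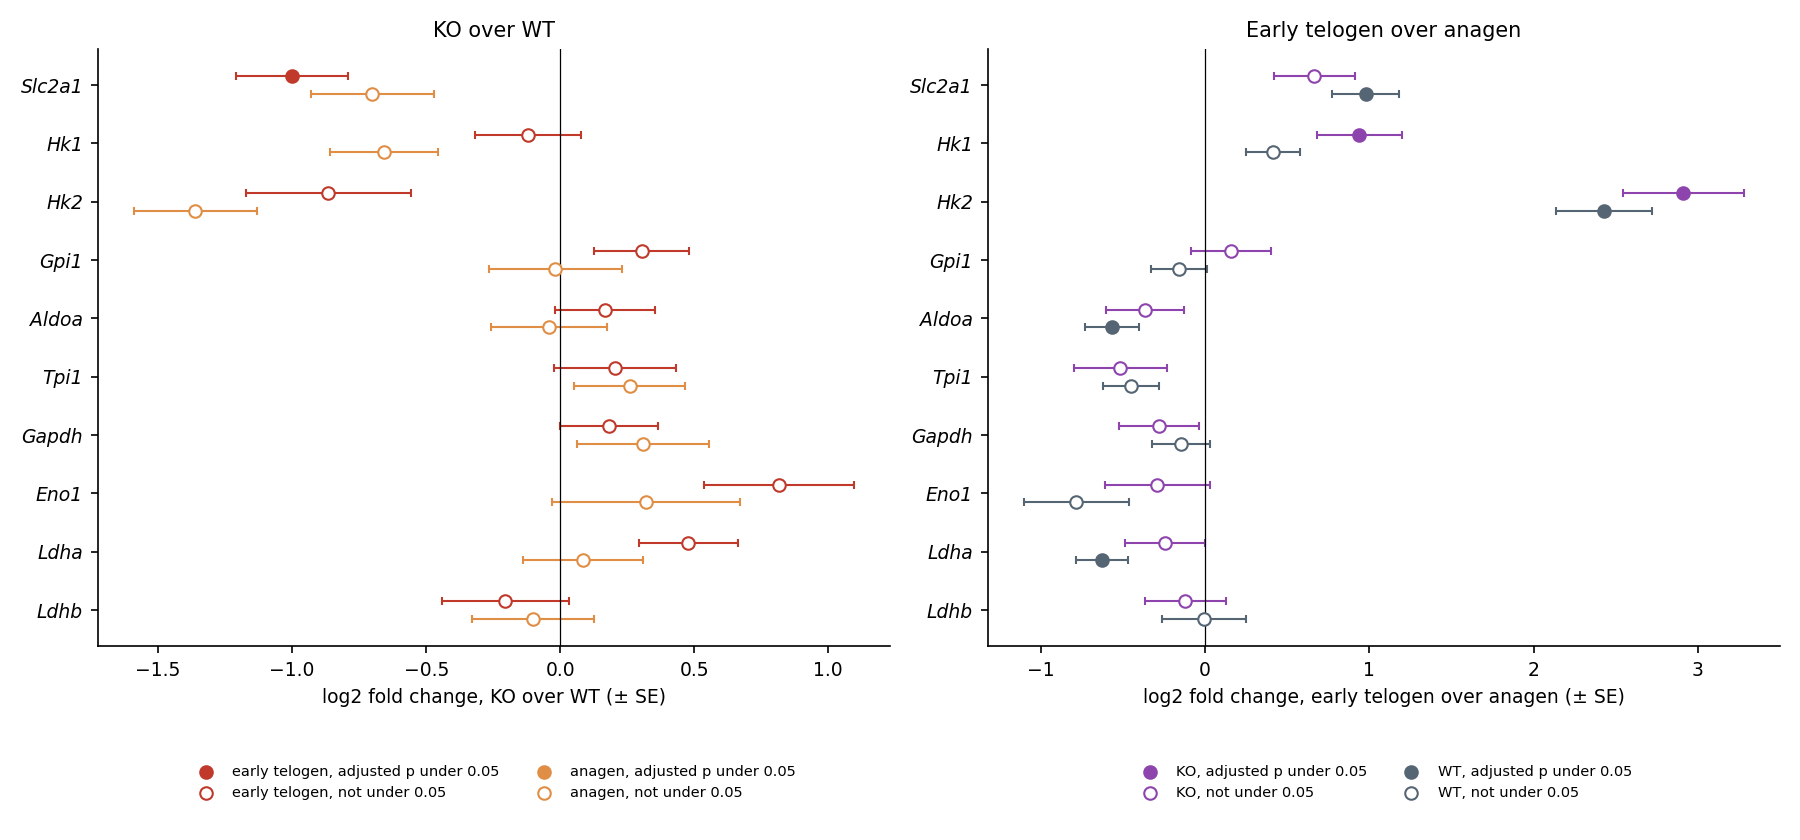
Fitted log2 fold changes with SE for the 10 members (horizontal axes), KO over WT on the left and early telogen over anagen on the right; filled points passed the edgeR test at an adjusted p of 0.05. On the left only Slc2a1 in early telogen is filled (-1.001), and on the right Hk2 stands out at 2.91 in KO and 2.43 in WT.

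Counted over members, 6 of 10 had early telogen groups that did not overlap: Slc2a1 and Hk2 were lower in every KO library than in every WT library, and Gpi1, Gapdh, Eno1 and Ldha were higher. Among all genes tested there, 13.1% did not overlap, 9.75% higher and 3.38% lower in KO. Overlap was judged on CPM over raw totals, without the TMM scaling of the fits. In anagen, Slc2a1, Hk1 and Hk2 were lower and Tpi1 and Gapdh higher in KO without overlap, 5 of 10 members, against 29.7% of all genes tested, 18.5% higher and 11.2% lower. The median log2 fold change of the 10 members was 0.17 in early telogen and -0.03 in anagen, against 0.03 and 0.02 over all genes tested. Since the members went in both directions, these medians describe no shared change.

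The gene counts of a library that fell on Slc2a1 and Hk2 together were 0.122% ± 0.0198 in early telogen KO and 0.205% ± 0.0581 in early telogen WT, and 0.0380% ± 0.000373 in anagen KO and 0.0675% ± 0.00815 in anagen WT (SD). The share of the 7 members below hexokinase was 0.190% ± 0.0378 in early telogen KO and 0.137% ± 0.0136 in early telogen WT, and 0.224% ± 0.0402 in anagen KO and 0.195% ± 0.0220 in anagen WT. In early telogen, every KO library had a lower share for the pair and a higher share for the 7 genes than every WT library. In anagen the same held for the pair, and the shares of the 7 genes overlapped. The pair joins genes that each separated without overlap at both ages, so its separation is no further result. Hk1, whose early telogen groups overlapped, is in neither sum. CPM and shares were scaled by raw totals, and the fits by TMM normalization, which set early telogen KO lower against WT. Krt5 had 10682 CPM in early telogen KO and 10677 CPM in early telogen WT on average, with a fitted log2 fold change of -0.19. Hk1 had 89.2 and 84.3 CPM, with -0.12. What part of the higher share of the 7 genes came from this scaling difference was not tested.

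**Figure D3:**
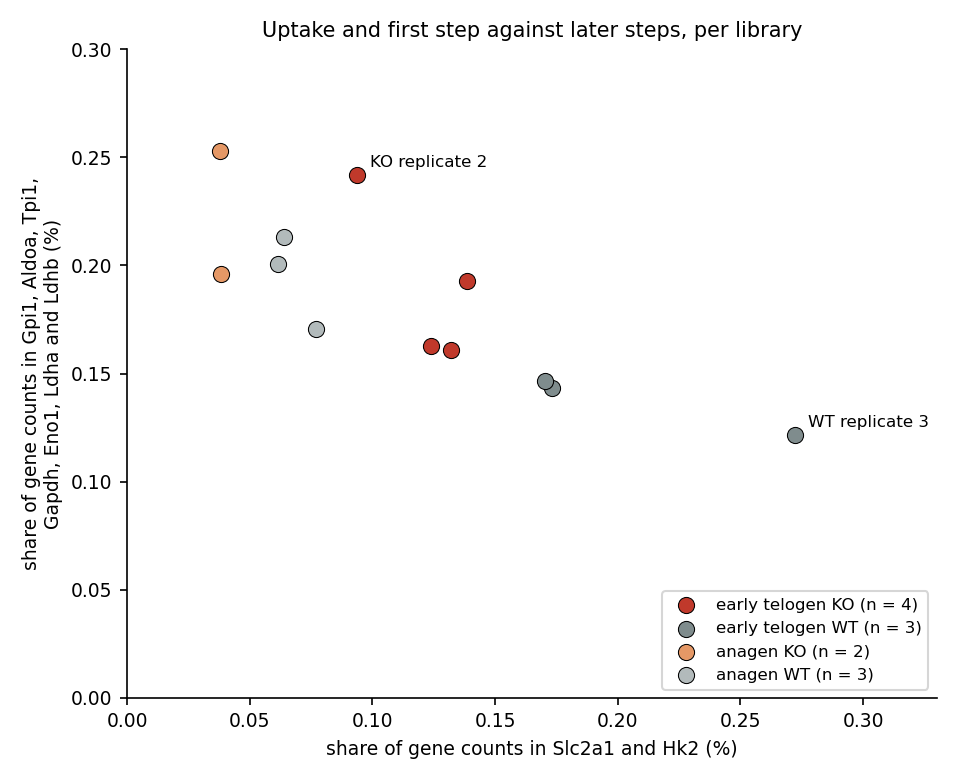
Percent of a library's gene counts in Slc2a1 and Hk2 (horizontal axis) against percent in the 7 members below hexokinase (vertical axis), a point per library. Early telogen WT replicate 3 lies at the far right at 0.272%, and early telogen KO replicate 2 is the highest of its group at 0.242% on the vertical axis.

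The sorted cells of the early telogen groups also differed in cell cycle genes. Of a list of 20 mitosis genes, 10 passed as higher in early telogen KO and none as lower, where 0.499% of all genes passed as higher; their summed level was 203 to 273 CPM in early telogen KO and 28.7 to 50.7 CPM in early telogen WT. The list's median log2 fold change was 2.31. Without KO replicate 2 and WT replicate 3, 4 of 20 passed, and 0 of 20 with all 12 libraries in 1 fit. In anagen the median of the list was 1.12 on the log2 scale and all 20 genes were above 0, and 0 of 20 passed by edgeR or DESeq2, while 4 of 20 passed as higher with the day in the title as a block. Their summed level was 776 CPM in the anagen KO library and 405 CPM in the anagen WT library titled day 29, and 199 CPM in KO and 81.1 CPM in WT titled day 31. The anagen WT library titled day 30 had 147 CPM, and the summed levels of the anagen groups overlapped. The upper follicle and epidermis markers summed to 1932 to 5901 CPM in early telogen KO and 1594 to 3941 CPM in early telogen WT, and the fibroblast markers to 523 to 5105 CPM in KO and 282 to 1584 CPM in WT. The first of these lists had a median log2 fold change of 0.50 in early telogen KO, with 5 genes positive and 3 negative. Against that median, its gene Sbsn, of differentiating epidermis, passed as lower (862 ± 20.9 CPM in KO and 1550 ± 183 CPM in WT, SD, edgeR adjusted p = 0.0303). Melanocyte markers summed to 72.4 to 107 CPM in early telogen KO and 81.7 to 136 CPM in early telogen WT. Their median log2 fold change was 2.18, and Dct, a pigment enzyme gene, passed as higher (11.0 ± 4.70 CPM in KO and 1.89 ± 0.525 CPM in WT, edgeR adjusted p = 0.0274). Mitf of the same list, which made up most of the sum, went the other way and did not pass. It had 64.7 ± 7.46 CPM in KO and 109 ± 28.6 CPM in WT (log2 fold change -0.94 ± 0.21, edgeR adjusted p = 0.0621). Immune markers summed to 69.1 to 243 CPM in early telogen KO and 44.0 to 110 CPM in early telogen WT. Their median log2 fold change was 1.34, and 0 of 7 passed. Of these genes 6 were positive and 1 was negative, Cd68, with -1.02 ± 0.25 (edgeR adjusted p = 0.0856). The fibroblast list had 6 genes positive and 2 negative, Pdgfra and Pdgfrb, and 0 of 8 passed. A list of 15 genes of the response to cell dissociation had a median log2 fold change of -0.50 in early telogen KO. Of these, 12 were negative, 3 were positive and 0 passed. Their summed level was 15572.2 to 29357.3 CPM in early telogen KO and 19970.7 to 33428.5 CPM in early telogen WT, highest in WT replicate 3. The part of these lists in the member values was not tested. In a bulk sample, fewer cells with a transcript and less of it per cell cannot be told apart.

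Whether the KO effect itself differed between early telogen and anagen was tested with an interaction term over all 12 libraries. 0 of 10 members passed, against 0.144% of 13193 genes, and DESeq2 also called 0 of 10, against 1.16% of genes. The difference was -0.32 ± 0.31 on the log2 scale for Slc2a1 (edgeR adjusted p = 0.944) and 0.47 ± 0.45 for Hk2 (edgeR adjusted p = 0.951). The smallest unadjusted p among the members was 0.102 by edgeR, for Hk1.

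The widest differences among the members were those of Hk2 between the 2 ages. Hk2 was 2.91 ± 0.37 higher on the log2 scale in early telogen KO than in anagen KO (edgeR adjusted p = 0.000449) and 2.43 ± 0.29 higher in early telogen WT than in anagen WT (edgeR adjusted p = 0.00122). Every early telogen library had at least 533 CPM of Hk2, and no anagen library had more than 279 CPM. Stage, age, depth and count table changed together here, so they cannot be told apart, and the stage comparisons share libraries with the comparisons of KO and WT. In WT cells, 4 of 10 members passed, 2 higher and 2 lower, against 29.5% of 12718 genes, 13.6% higher and 15.9% lower. Slc2a1 was higher in early telogen WT by 0.98 ± 0.20 (edgeR adjusted p = 0.00747), while Ldha was lower by a log2 fold change of -0.63 ± 0.16 (adjusted p = 0.0159 by edgeR) and Aldoa by -0.56 ± 0.16 (edgeR adjusted p = 0.0283).

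The calls of Aldoa and Ldha in WT cells depended on single libraries. Aldoa did not pass with sex as a covariate or without early telogen WT replicate 1, 3 or 4 or anagen WT replicate 1 or 2 (edgeR adjusted p from 0.0624 to 0.0913), and Ldha did not pass without early telogen WT replicate 1 (adjusted p = 0.0513) or 3 (adjusted p = 0.0652). Without overlap, Slc2a1, Hk1 and Hk2 were higher and Aldoa, Tpi1 and Ldha lower in early telogen WT than in anagen WT, 6 of 10 members, against 47.9% of all genes tested.

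In KO cells, 2 of 10 members passed as higher in early telogen than in anagen and 0 as lower, against 22.2% of 12771 genes in either direction and 10.2% as higher. They were Hk2, with the value given above, and Hk1, with a log2 fold change of 0.94 ± 0.26 (adjusted p = 0.0263 by edgeR). Hk1 did not pass without early telogen KO replicate 5 (adjusted p = 0.0638), anagen KO replicate 1 (0.183) or anagen KO replicate 2 (0.0779). Slc2a1 was 0.67 ± 0.25 higher in early telogen KO (edgeR adjusted p = 0.0775), and passed with DESeq2 (adjusted p = 0.0343), which called 24.5% of genes. The groups of Slc2a1, Hk1 and Hk2 did not overlap, 3 of 10 members, all higher, against 44.9% of all genes tested.

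Per kilobase of the longest protein-coding transcript, Aldoa had the highest level of the 10 in all 4 groups. Reads placed at more than 1 position were left out of the anagen gene counts, and the early telogen counts came without a tally of such reads. Where they were left out, this order holds for uniquely placed reads. That may set Gapdh, Eno1, Ldha, Ldhb and Gpi1 too low beside Aldoa, Slc2a1 and the hexokinases. In early telogen KO, Aldoa was followed by Gapdh, Ldha, Hk2 and Slc2a1, at 279 ± 40.5, 209 ± 39.0, 143 ± 33.5 and 132 ± 6.64 CPM per kb. In early telogen WT, Aldoa at 241 ± 19.8, Slc2a1 at 236 ± 34.2, Hk2 at 233 ± 85.1 and Gapdh at 218 ± 14.7 CPM per kb did not differ beyond their spread. Hk2 was the eighth of 10 in both anagen groups, at 19.3 ± 3.14 CPM per kb in anagen KO and 46.5 ± 5.45 CPM per kb in anagen WT. Hk1 and Ldhb were the lowest in every group, between 10.7 and 20.8 CPM per kb on average.

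**Figure D4:**
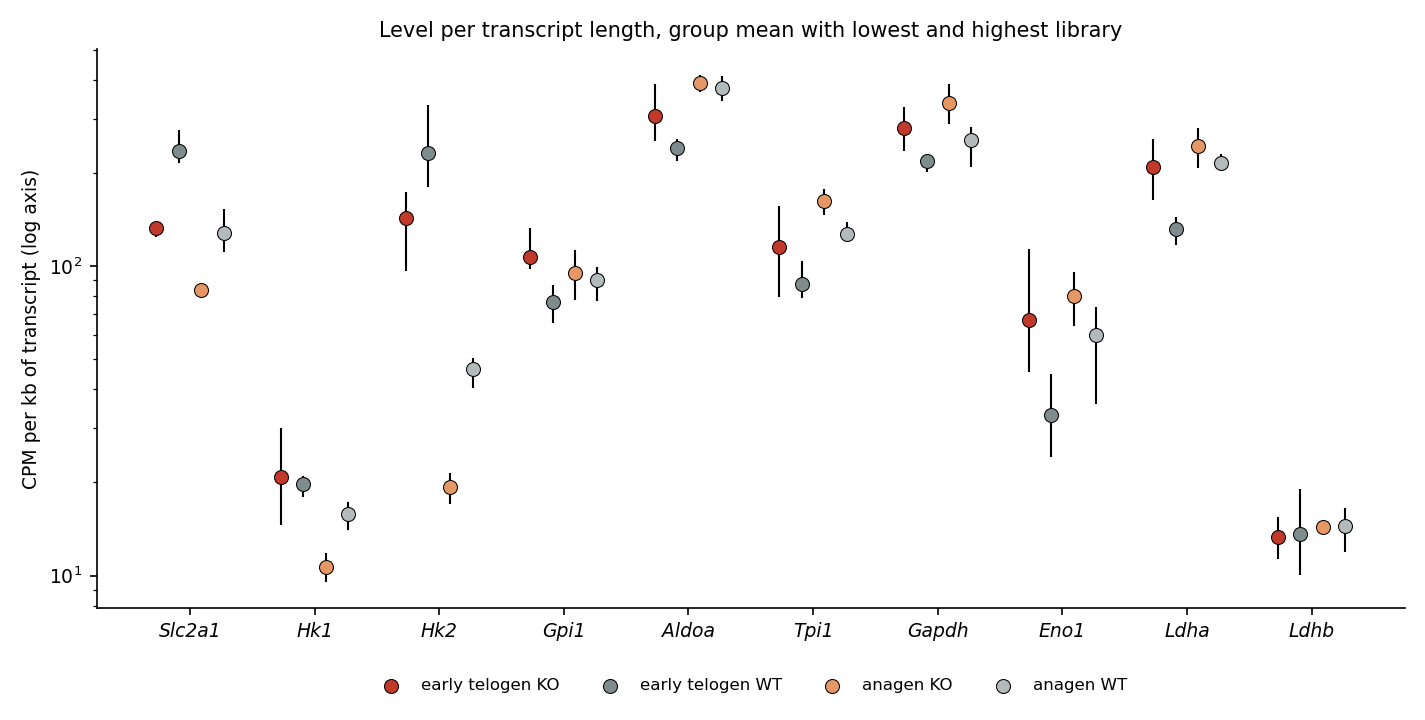
Level of the members in CPM per kilobase of transcript (vertical log axis) in 4 groups, as the group mean with a line from the lowest to the highest library. Aldoa is highest in each group, and Hk2 has the widest span of group means, 19.3 to 233 CPM per kb.

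Phosphofructokinase, phosphoglycerate kinase, phosphoglycerate mutase and pyruvate kinase genes were named in the anagen table alone, so they were compared only there. Pkm, a pyruvate kinase gene, had 1282 and 945 CPM in anagen KO, against 1083, 1053 and 1081 CPM in anagen WT, with a log2 fold change of -0.03 ± 0.23. Pfkp, a phosphofructokinase gene, had 454 and 280 CPM in anagen KO, against 267, 232 and 304 CPM in anagen WT (0.37 ± 0.27). Pgk1 had 412 and 217 CPM in anagen KO, against 302, 273 and 171 CPM in anagen WT (0.25 ± 0.36). All 3 overlapped between genotypes. Pfkl, Pfkm and Pgam1 had log2 fold changes of -0.46 ± 0.29, -0.35 ± 0.24 and 0.00 ± 0.27, and 0 of these 6 passed (edgeR adjusted p of 0.658 or more).

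Other genes of glucose use did not pass in early telogen KO against WT. None passed of 7 other glycolysis enzymes, 15 glucose and lactate transport genes, 15 genes of pyruvate entry into mitochondria, 6 pentose phosphate genes, 9 glycogen genes, 2 gluconeogenesis genes or 12 regulators around hypoxia-inducible factors and MYC. The median log2 fold change of the transport list was 0.49 and that of the regulators -0.20, against 0.03 over all genes. The smallest p among transport genes belonged to Slc16a3, a lactate exporter, with 4.74, 16.7, 4.35 and 4.88 CPM in early telogen KO replicates 1, 2, 3 and 5 against 1.87, 1.95 and 0.816 CPM in WT (log2 fold change 2.04 ± 0.54, edgeR adjusted p = 0.112). Myc had the smallest p among the regulators, with a log2 fold change of -0.82 ± 0.22 (adjusted p = 0.111 by edgeR). Pck2, a mitochondrial phosphoenolpyruvate carboxykinase gene, did so in gluconeogenesis, with 1.05 ± 0.28 (edgeR adjusted p = 0.106).

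Of 17 hypoxia target genes outside glycolysis, 1 passed as higher and 1 as lower in early telogen KO. Car12, a carbonic anhydrase gene, had 61.2, 78.7, 35.1 and 44.0 CPM in early telogen KO against 16.4, 14.3 and 15.98 CPM in WT (log2 fold change 1.62 ± 0.23, edgeR adjusted p = 0.00596). Adm, which encodes the vasodilator peptide adrenomedullin, had 52.6, 43.0, 42.3 and 29.7 CPM in early telogen KO against 85.2, 145 and 93.0 CPM in WT (log2 fold change -1.54 ± 0.25, edgeR adjusted p = 0.0152). Both separated the genotypes without overlap, in opposite directions, and Adm did not pass without WT replicate 3 or KO replicate 5. Neither passed with all 12 libraries in 1 fit or with the number in the title as a block, where 0 of 17 passed. In anagen KO against WT, none of these lists had a gene that passed, and with the smallest p values stood Pfkfb4, which sets fructose-2,6-bisphosphate (-0.97 ± 0.27, edgeR adjusted p = 0.299), and Arrdc4, an arrestin gene of glucose transport control (0.90 ± 0.28, edgeR adjusted p = 0.341).

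Between the ages, 22.2% of all genes tested passed in KO and 29.5% in WT, so counts in lists stand beside those shares. Of transport genes, 1 was higher and 5 lower in early telogen KO than in anagen KO, out of 15 tested, and 1 was higher and 5 lower in WT, out of 14. Slc16a7, a monocarboxylate transporter gene with high affinity for pyruvate, was lower by -3.55 ± 0.24 on the log2 scale in KO (edgeR adjusted p = 1.35e-05) and by -2.49 ± 0.47 in WT (edgeR adjusted p = 0.00923). Bsg, the chaperone of lactate transporters, was lower by -1.14 ± 0.25 in KO and -0.82 ± 0.14 in WT (edgeR adjusted p = 0.0105 and 0.00386). Mpc1, a subunit of the mitochondrial pyruvate carrier, was lower by -1.20 ± 0.22 in KO and -1.19 ± 0.19 in WT (edgeR adjusted p = 0.00353 and 0.00296). Pdha1, of the pyruvate dehydrogenase complex, was instead higher, by 1.09 ± 0.26 in KO and 0.95 ± 0.17 in WT (edgeR adjusted p = 0.0142 and 0.00409). Of 6 pentose phosphate genes, 1 was lower in KO (Tkt) and 2 were lower in WT (Tkt and Taldo1), and of 9 glycogen genes, 4 were lower in KO and 2 in WT, among them Gys1, the glycogen synthase gene, in both. Aldoc, an aldolase gene, was higher in early telogen KO than in anagen KO by 1.69 ± 0.33 (edgeR adjusted p = 0.00548) and did not pass in WT.

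Of the 12 regulators, 1 was higher and 2 were lower in early telogen KO than in anagen KO, and 2 were higher and 2 lower in WT, numbers near the shares of all genes. Vhl, which encodes the ligase subunit that targets hypoxia-inducible factors for decay, was lower by -1.87 ± 0.36 in KO and -1.23 ± 0.32 in WT (edgeR adjusted p = 0.00503 and 0.0192). Mlxip, a glucose-sensing transcription factor gene, was higher by 0.93 ± 0.24 in KO and 0.87 ± 0.17 in WT (edgeR adjusted p = 0.0209 and 0.00577). Myc was higher by 0.81 ± 0.21 in WT (edgeR adjusted p = 0.0169), and Epas1, a hypoxia-inducible factor gene, was lower by -1.59 ± 0.22 in KO (edgeR adjusted p = 0.000852). Of 17 hypoxia targets, 0 were higher and 5 lower in KO, and 5 were higher and 4 lower in WT. Car12 was lower in early telogen KO than in anagen KO by -3.64 ± 0.28 (edgeR adjusted p = 1.96e-05), and Ddit4, an inhibitor of mTOR signalling, was lower by -2.37 ± 0.27 in KO and -2.12 ± 0.28 in WT (edgeR adjusted p = 0.000244 and 0.00163).

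The gene whose levels followed Slc2a1 most closely over the 12 libraries was Myc. Likeness was the mean absolute difference between centred log2 levels, over 10088 genes of at least 5 CPM in 1 group, and it was 0.128 for Myc, 0.155 for Ssfa2 and 0.165 for Lmbr1l, the 3 nearest. Myc had 472, 444, 483 and 459 CPM in early telogen KO, against 640, 900 and 643 CPM in early telogen WT. In anagen it had 251 and 377 CPM in KO, against 458, 419 and 461 CPM in WT. Its groups, like those of Slc2a1, did not overlap between genotypes at either age. Myc was picked for its likeness to Slc2a1 in these same libraries, so this is no further result. Among all genes tested, 13.1% did not overlap in early telogen and 29.7% in anagen. The test of Myc itself did not pass at either age (edgeR adjusted p = 0.111 in early telogen and 0.475 in anagen). Hk2 was number 8080 in this order, since its levels moved further between the ages. The points share library, depth and stage, so likeness is a description of these libraries.

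**Figure D5:**
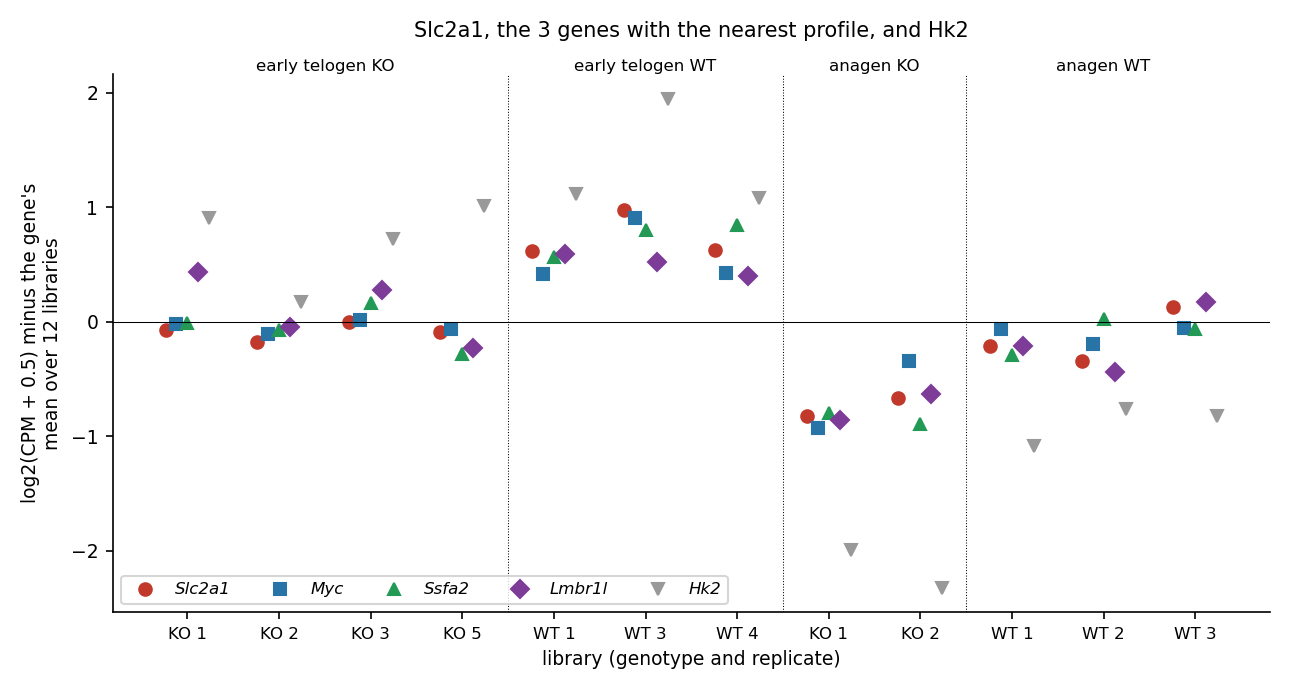
Log2(CPM + 0.5) of Slc2a1, of the 3 genes with the most similar profile and of Hk2, each minus its own mean over 12 libraries (vertical axis), by library and group (horizontal axis). Slc2a1, Myc, Ssfa2 and Lmbr1l lie on average highest in early telogen WT and lowest in anagen KO, and Hk2 spans a wider range with the same highest and lowest groups.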

How the data were processed

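The authors deposited raw counts of reads by gene, in 1 table for each age set. Per the submitters' processing notes, reads were aligned with TopHat2 to mm10 and counted with HTSeq. Versions, settings and the strand option of counting are not given in the sources used here, and the kit was directional per the labels. The early telogen table held 37958 gene rows after 3 broken lines were left out, and that of anagen held 38803 rows, beside 5 tally lines that stayed out of totals and tests. Names held by the anagen table alone took 3.14% to 3.41% of its counts, which shifts CPM between the tables by about that share. Within each age all genes of that table were tested, and between ages the shared names.

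From the counts, CPM was computed over all gene rows of a library, and genes were tested with edgeR 4.0.16 (TMM, filterByExpr with a minimum count of 10 and a minimum total of 15, robust quasi-likelihood F-test, two-sided) in R 4.3.3, with Benjamini-Hochberg adjustment over all genes tested and a threshold of 0.05. The SE is the log2 fold change divided by the root of F. The steps were tested on simulated data. The alternatives were RLE normalization, DESeq2 1.42.0, no filter, labelled sex as a covariate, a replicate block, all 12 libraries in 1 fit, and leaving out each library. Leaving out early telogen KO replicate 2 and WT replicate 3 together was chosen after seeing the data. No pair of libraries was close enough in counts to be the same library. Lengths, coordinates and near-identical stretches (BLAST 2.17.0) came from GENCODE M21, and promoters from RefSeq on GRCm38.p6, where all 10 members matched by symbol. GENCODE gives the symbol Aldoa to 2 genes, and the protein-coding ENSMUSG00000030695.16 was used.

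The members and gene lists were chosen with earlier results of these data known. Named were all members, Foxc1, up to 4 passing genes of each pathway list by smallest p (or the gene of smallest p), the 3 genes nearest to Slc2a1 in profile, and the tested glycolysis enzymes of the anagen table alone. Pairs, examples and list genes beyond these were picked after their values were seen. With 2 to 4 libraries a group, few replicates limit precision.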

Additional observations from a re-analysis of the deposited data

Results flagged for a closer look

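Of 20 values checked for a library far from the rest of its group, 5 had one, all in early telogen KO replicate 2. Chance marks about 1 in 20 groups, and the 5 values share genes and a library, so they are not separate events. In that library Gpi1 was at 384 CPM and Eno1 at 231 CPM, the highest of the 4 KO libraries by a wide gap. Hk2 made up 76.3% of the hexokinase level per kb there, and the log2 ratio of Hk2 to the summed CPM of the 7 members below hexokinase was -2.18, both the lowest of the group. The summed level of the upper follicle and epidermis markers was 5901 CPM, the highest of the group. These values moved together in a single library, and what links them was not tested. Outside the gene counts, the tally of placements at more than 1 position was at least 31.1% of all counts and tallies in both anagen KO libraries. That was above every anagen WT library, and its effect on genes with near-identical copies was not tested.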

How the results depend on the processing

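The number of genes and members that passed depended on the test and on single libraries. In early telogen KO against WT, 115 genes passed by edgeR, 399 with DESeq2, 338 with no filter on low counts, 39 with all 12 libraries in 1 fit and 19 to 131 with 1 library left out. With early telogen KO replicate 2 and WT replicate 3 both left out, 47 genes and 0 members passed. Members that passed numbered 1, with 2 once sex was a covariate (Slc2a1 and Eno1) and 0 to 1 with 1 library left out. In anagen KO against WT, 0 genes passed by edgeR, 499 with DESeq2 and 1 member among them, and 306 with no filter and 1 member. The 1 gene that passed with sex as a covariate was no member, nor were any of the 154 with all 12 libraries in 1 fit. With 1 anagen WT library left out, 0 to 95 genes and 0 members passed. For WT, early telogen against anagen, 2312 to 3329 genes and 2 to 5 members passed with 1 library left out. For KO the same counts were 1382 to 3640 genes and 1 to 3 members. For the difference of KO effects, 19 genes passed by edgeR, 148 with DESeq2, 409 with no filter, 0 without both early telogen libraries named above and 0 to 55 with 1 library left out. No member passed that test under any of these settings. The causes were not tested.

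With the replicate block, the number in the title for early telogen, 11 genes and 0 members passed (Slc2a1 log2 fold change -0.94, edgeR adjusted p = 0.141) and Tpi1 was at -0.033. With the day in the title as the replicate block for anagen, 253 genes and 1 member passed (Hk2, edgeR adjusted p = 0.0395), and Gpi1, Aldoa and Ldhb were at 0.047, 0.037 and 0.025. Same-numbered early telogen libraries had deviations correlated at 0.120 and 0.058, and crossed ones at -0.015 and -0.082. Same-day anagen libraries had 0.478 and 0.398. The deviations of the anagen KO libraries mirror each other, as there are only 2. The crossed anagen values were therefore fixed at -0.398 and -0.478, and the same-day values are not separate evidence. The early telogen libraries share only a number. The anagen pairs share the age in their titles, although the day 31 WT library has an age label of 43 days, and the labels name no litter or batch for them, so both fits are given.

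Under these settings, signs turned only for fold changes that had not passed. With 1 library left out, log2 fold changes ranged from -0.36 to 0.063 for Ldhb in early telogen KO against WT, and in anagen from -0.018 to 0.58 for Eno1, -0.16 to 0.28 for Ldha, -0.33 to 0.22 for Gpi1, -0.15 to 0.047 for Aldoa and -0.23 to 0.016 for Ldhb. Between ages they ranged from -0.27 to 0.13 for Ldhb and from -0.48 to 0.53 for Foxc1 in WT, and from -0.60 to 0.014 for Eno1 and -0.13 to 0.43 for Gpi1 in KO. In the difference of KO effects they ranged from -0.23 to 0.090 for Tpi1, -0.27 to 0.14 for Ldhb and -0.36 to 0.096 for Gapdh. Ldhb in WT between ages was 0.043 with RLE normalization and 0.036 with DESeq2, and Foxc1 was 0.17 with sex as a covariate. Where 1 library left a group with a single one, its spread was assumed equal to that of the other group.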
